A study of Drosophila melanogaster with 2 samples.

Results

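Strong binding of the zinc finger protein CG1792 at 3 long noncoding RNA (lncRNA) genes, lncRNA:CR31840, lncRNA:Vinr and lncRNA:CR44619, was described from chromatin immunoprecipitation sequencing (ChIP-seq) peak lists of Drosophila melanogaster embryos. The genes were matched by symbol in the Ensembl annotation of the fly genome, which holds 1944 lncRNA genes on the main chromosome arms. All summits inside the genes or within 5 kb of them were taken from 4 lists: the thresholded list of 2892 peaks and the pooled, replicate 2 and replicate 3 lists of 30000 regions each. The thresholded list placed 7 summits there, the pooled list 18, replicate 2 17 and replicate 3 20.

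There was 1 group of 2 libraries. The embryos were whole, of mixed sex and 0 to 24 hours old, from a transgenic line with GFP fused to the C terminus of CG1792. Chromatin was precipitated with an antibody against GFP, while a separate antibody entry in the labels reads CG1792. Both libraries came from the same line, and all cell types of the embryo were pooled, so a value cannot be assigned to a tissue. An untagged or control library was not analysed here, and the sources used here do not give whether the line still carries an unfused CG1792 gene. Read depth is unknown because the lists hold no counts.

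CG1792 carries zinc fingers of the C2H2 type, which read DNA sequence, and an N-terminal zinc-finger associated domain, which in this insect-expanded family commonly serves dimerisation. Long noncoding RNAs are transcribed from genes without a long open reading frame, and some act in the nucleus or on the expression of other genes. Vinr was named as an RNA induced by virus and has been reported to act in antimicrobial immunity by keeping the protein Cactin stable. No role is given here for CR44619 or CR31840.

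The DNA under the strongest summit of each gene is shown because it is the stretch on which the results below turn. Each window runs 50 bp to either side of the summit of the thresholded list and is written 5′ to 3′ on the plus strand of dm6 (RefSeq release 6 sequence). Capitals mark matches, on either strand, to the 5-base CGATA, or to any of 7 sequences of 7 bases that were more frequent at other peaks, as described below. The CR31840 window, at chr2L:14024030-14024130, holds no such match. The Vinr window lies at chrX:12751358-12751458 and the CR44619 window at chrX:12752325-12752425.
CR31840: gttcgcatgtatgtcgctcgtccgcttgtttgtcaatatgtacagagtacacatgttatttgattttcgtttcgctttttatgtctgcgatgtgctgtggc
Vinr: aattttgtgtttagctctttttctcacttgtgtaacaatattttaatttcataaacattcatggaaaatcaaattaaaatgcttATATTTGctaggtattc
CR44619: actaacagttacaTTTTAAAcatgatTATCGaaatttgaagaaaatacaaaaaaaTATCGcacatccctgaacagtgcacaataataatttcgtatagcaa

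The strongest of these peaks lay at the start of CR31840, whose sequence is shown above. This gene (FBgn0051840) is a single exon of 378 bp on the minus strand of 2L, from 14023722 to 14024099. Its peak ran from 14023912 to 14024270, with the summit at 14024080, in the exon and 19 bp downstream of the annotated start. The signal, the strength the peak caller gave the region, was 983 in the pooled list, 455 in replicate 2 and 532 in replicate 3. It ranked 9 among the regions of each of these 3 lists. The region ran past the annotated start and so covered part of the exon and part of the DNA upstream of it.

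Both replicates placed the CR31840 summit at the same base. Among the 100 strongest peaks, 3 had summits at identical positions in the replicates, and the median gap was 11 bp. A start of any lncRNA gene lay within 100 bp of 19 of the 2892 thresholded summits, or 0.657% (Wilson 95% interval 0.421% to 1.02%). These shares describe the list, since the 3 genes were chosen from its strongest peaks.

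A weaker thresholded peak, listed from 14024074 to 14024489, overlapped the main peak and took in the main summit at 14024080. Its summit, at 14024282, lay 202 bp from the main summit and 183 bp upstream of the CR31840 start, and it ranked 1675 with a pooled signal of 91.4. Replicate 3 gave it a signal of 74.6 and rank 819, whereas replicate 2 gave it 12.0 and rank 27290. The log2 ratio of replicate 3 to replicate 2 was 2.63, higher than at 99.9% of the 2753 thresholded peaks with a partner in both lists. Ratios at or beyond 2 on this scale, in either direction, were seen at 7 thresholded peaks in all, this one included. Within 250 bp of a stronger peak lay 98 peaks, 84 of them with a partner in both lists. These 84 held 3 of the 7, again with this one included. The weaker peak was thus carried by replicate 3, while the main peak stood at a log2 ratio of 0.23.

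The third thresholded peak of the locus lay between genes, 1050 bp past the 3′ end of CR31840. Its summit was at 14022672, with a pooled signal of 79.9 and rank 2145. Here replicate 2 was the higher, with 56.1 (rank 1068) against 25.2 in replicate 3 (rank 5715), and the replicate summits were 62 bp apart. The log2 ratio of replicate 3 to replicate 2 was -1.15, lower than at all but 1.05% of the peaks. The 2 weaker thresholded peaks of the locus therefore stood in opposite directions in the libraries; no test was made, since each library gave 1 value.

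The main CR31840 peak was 10.8-fold above the next region of its window in the pooled list, 8.10-fold in replicate 2 and 7.13-fold in replicate 3. The next region was not the same in each list. It was the weaker peak upstream in the pooled list and replicate 3, and the peak past the 3′ end in replicate 2. In each list the main summit was the single one inside the gene, while the region of the weaker peak upstream also reached past the gene's start. The pooled list held 4 other regions in this window that had no thresholded peak within 100 bp, with ranks from 3446 to 21129 and signals of at most 60.6. Among them, the region with its summit at 14021725 (signal 53.6, rank 4238) lay in an exon of another lncRNA gene.

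**Figure D1:**
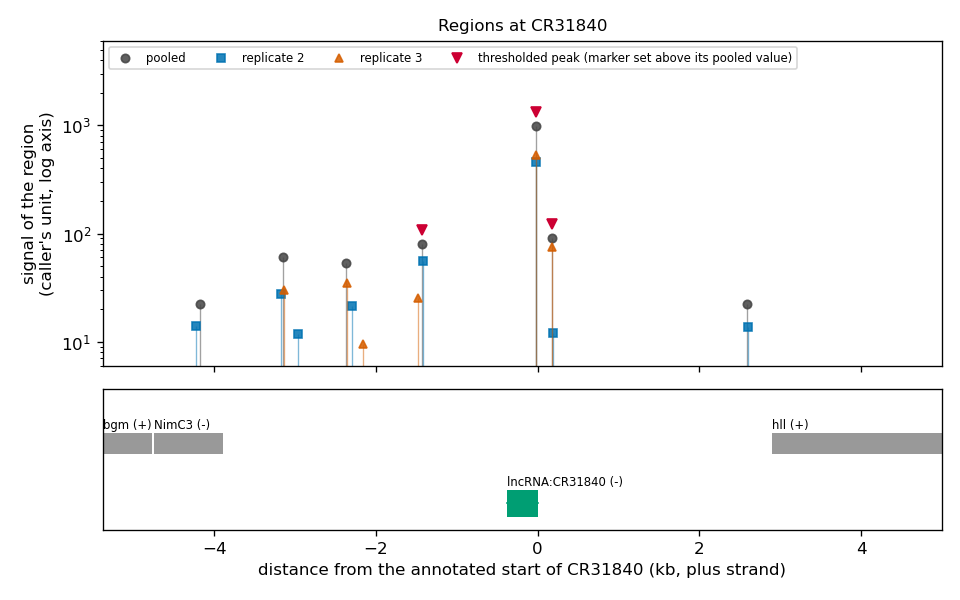
Signals of the regions in the pooled and replicate lists (log axis, the caller's unit) against distance from the CR31840 start, with red markers set above thresholded peaks. Gene spans are below (green CR31840, grey protein-coding), and other noncoding genes of the window are not drawn. The peak of signal 983 sits at the gene's start, with the weaker peaks of 91.4 and 79.9 on either side of it.

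The neighbouring protein-coding genes had no thresholded peak of their own. Within 5 kb of CR31840 lie bgm, which encodes an acyl-CoA synthetase for very long chain fatty acids, NimC3, a gene of the Nimrod family of phagocytosis receptors, and hll, which encodes another acyl-CoA synthetase. The nearest coding start was that of hll, 2921 bp from the main summit, which lay on its upstream side. The start of NimC3 was 3872 bp away and the nearest start of bgm 10334 bp away. None of the 3 genes held a thresholded summit inside it or within 500 bp of a start. Over all 13945 protein-coding genes, 14.2% had a thresholded summit within 500 bp of a start, and 82.1% had one neither there nor inside the gene. The lack of peaks at these neighbours was therefore what most coding genes showed. Weak regions at their starts did occur in the pooled list, with signals of 38.5 at bgm (rank 7429), 22.2 at NimC3 (rank 21129) and 22.3 at hll (rank 20901). Replicate 3 listed a region at the bgm starts only.

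On X, Vinr and CR44619 formed 1 locus. Vinr (FBgn0287633) is a single exon of 2457 bp on the plus strand, from 12749894 to 12752350. CR44619 (FBgn0265830) lies on the same strand from 12751867 to 12754571, with 2 annotated transcripts that share exon 1. The genes overlap by 484 bp, or 19.7% of Vinr and 17.9% of CR44619. Their windows share the same 4 thresholded summits, so the pair does not count as independent cases.

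The stronger of the main peaks lay in the Vinr exon, away from its start. Its region ran from 12751158 to 12751620, and its summit, at 12751408, was 1514 bp downstream of the Vinr start, 942 bp before its end and 459 bp upstream of the CR44619 start. The signal was 815 in the pooled list (rank 16), 382 in replicate 2 (rank 15) and 437 in replicate 3 (rank 16), so the peak was among the strongest in every list. The replicate summits were 36 bp apart, at 12751439 in replicate 2 and 12751403 in replicate 3. Of the 100 strongest peaks, 11 had a gap of more than 30 bp. The region was 463 bp wide, and 99.6% of thresholded peaks were narrower, where 416 bp was the common width.

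The peak named for CR44619 had its summit 967 bp further on, past the Vinr end, while its region reached back into Vinr. It ran from 12752163 to 12752541 with the summit at 12752375, which is 25 bp past the annotated Vinr end, 508 bp downstream of the CR44619 start and 41 bp before the end of its exon 1. Its signal was 653 in the pooled list (rank 25), 319 in the list of replicate 2 (rank 26) and 335 in that of replicate 3 (rank 30), and the replicate summits were 9 bp apart. Both main peaks of the locus therefore stood among the 30 strongest regions of each library. Among the 25 strongest thresholded peaks they were the 1 pair with summits within 2000 bp of each other, and among the 100 strongest there were 3 such pairs.

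The annotated start of Vinr itself carried little signal. The closest region was at 12750357 in the pooled list, 463 bp downstream of the start, with a signal of 31.3 and rank 11000. In replicate 2 a region at 12750359 had 24.5 (rank 5535), and in replicate 3 one at 12750113 had 16.9 (rank 11343). The start of CR44619 lay between the main summits.

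The other thresholded peaks of the locus were weaker and alike in the replicates. The third summit, at 12754530 in the last exon of CR44619 and 41 bp before its end, had a signal of 155 in the pooled list (rank 635), 83.1 in replicate 2 (rank 498) and 73.4 in replicate 3 (rank 841), and it was the one other summit inside CR44619. The fourth lay between genes at 12755986, 1415 bp past the CR44619 end, with signals of 71.6 (rank 2581), 34.2 (rank 2708) and 37.8 (rank 2859) in the same order. The strongest peak was 5.24-fold above the third in the pooled list, 4.59-fold in replicate 2 and 5.96-fold in replicate 3, and the second strongest 4.20-fold, 3.84-fold and 4.56-fold above it. A further 7 regions of the pooled list in this window had no thresholded peak within 100 bp, and the best of them ranked 7864 with a signal of 37.3.

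**Figure D2:**
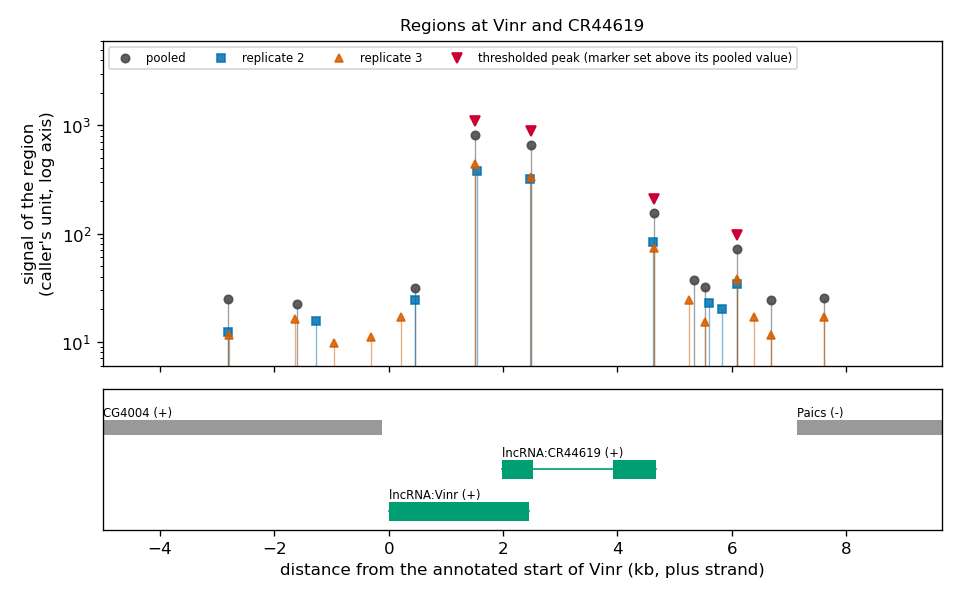
Signals of the regions in the pooled and replicate lists (log axis, the caller's unit) against distance from the Vinr start, with red markers set above thresholded peaks and gene spans below (green bars exons of lncRNA genes, all transcripts drawn together; grey protein-coding genes). The peaks of signal 815 and 653 sit in the Vinr exon and just past its end, and those of 155 and 71.6 at and past the CR44619 end.

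The coding neighbours of the X locus were CG4004, which ends 109 bp before Vinr begins, and Paics, an enzyme gene of purine synthesis 2465 bp past CR44619 and transcribed towards it. Neither had a thresholded summit inside it or within 500 bp of a start. The nearest CG4004 start was 5091 bp from the Vinr summit and 6058 bp from the CR44619 summit, and the Paics start 9209 and 8242 bp. At the CG4004 starts the pooled list gave a region of signal 38.7 (rank 7367), with ranks of 7704 in replicate 2 and 7025 in replicate 3. At the Paics start no list had a region within 500 bp.

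The main peaks of the 3 genes lay farther from coding starts than most peaks of their strength. The median distance to the nearest protein-coding start was 193 bp in the 100 strongest peaks and 403.5 bp in all 2892. Of the 100 strongest, 27 lay more than 1000 bp away (Wilson 95% interval 19.3% to 36.4%) and 10 more than 4000 bp away (5.52% to 17.4%). The Vinr and CR44619 summits belong to those 10, and all 3 to the 27. Such distances were more common over all 2892 thresholded peaks, of which 37.7% lay more than 1000 bp away and 18.9% more than 4000 bp away. The genes were chosen with these peaks known, so the distances are given as a description.

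The ranks of the main peaks moved little between the libraries, while those of the weaker peaks beside CR31840 moved more. The main peaks were chosen from the top of these lists, where neighbouring ranks differ more in signal, so this contrast is only a description. CR31840 kept rank 9, Vinr moved between 15 and 16, and CR44619 between 25 and 30. Log2 ratios of replicate 3 to replicate 2 were 0.23, 0.20 and 0.07, against a median of 0.16 and an SD of 0.28 in the 100 strongest peaks. The level of this ratio depends on the scale of each list, which is not stated, and is not read as a difference between libraries.

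**Figure D3:**
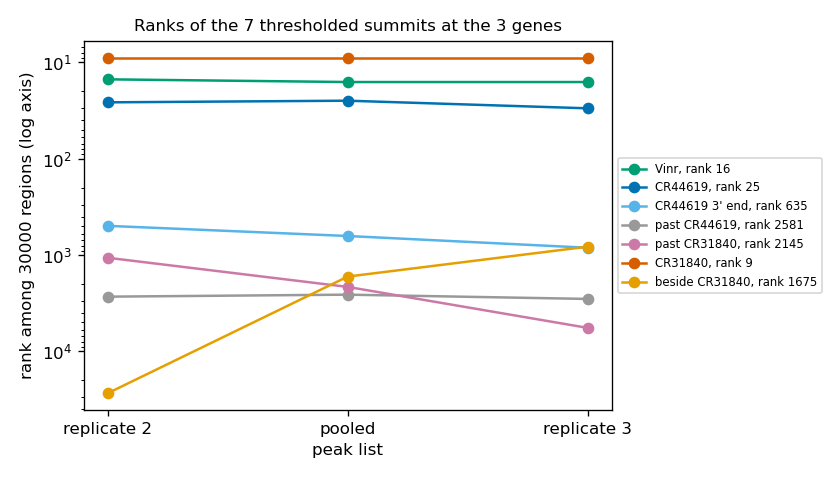
Rank of each of the 7 thresholded summits in replicate 2, the pooled list and replicate 3 (log axis, rank 1 at the top), where each line is 1 summit. The lines at ranks 9, 16 and 25 are nearly flat, while the summit beside CR31840 runs from 27290 in replicate 2 to 819 in replicate 3.

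The peaks directly above and below in pooled rank were taken as the most alike in pooled strength. Other peaks were nearer in the replicate ranks, such as the peak at pooled rank 19, with ranks 16 and 18 in replicates 2 and 3, to Vinr. CR31840 stood between the intronic peaks of the kinase gene Lk6 (signal 990, ranks 8 and 7 in replicates 2 and 3) and of the Polycomb group gene ph-p (signal 977, ranks 10 and 8). Vinr stood between CG1888 (signal 817, ranks 14 and 19) and Mic26-27 (signal 804, ranks 11 and 27). CR44619 stood between a peak between genes near CG31145 (signal 672, ranks 28 and 25) and an intronic peak of the casein kinase gene gish (signal 644, ranks 41 and 24). In replicate 3 the CR31840 peak ranked behind both of its neighbours and the Vinr peak ahead of both, and the CR44619 peak was ahead of both in replicate 2 and behind both in replicate 3. The order within each trio therefore changed between the libraries. The distances of the 6 neighbours to a coding start ran from 36 bp at Mic26-27 to 975 bp at Lk6. All were shorter than at the 3 genes. The peak at pooled rank 19, by contrast, lay farther from a coding start than any of the 3 genes' main peaks. Short distances were thus not a rule among peaks of like strength.

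Among lncRNA genes, 434 of 1944 (22.3%) had a thresholded summit inside or within 5 kb, 51 (2.62%) had at least 3 and 15 (0.772%) at least 4. CR31840 had 3, with the weaker peak upstream of its start overlapping the main one, and Vinr and CR44619 had their 4 in common. A summit inside the gene was found at 82 genes (4.22%), among which CR44619 was 1 of 11 (0.566%) with more than 1. These 3 genes were picked for their peaks, so nothing is read from their standing among the rest. For size, CR31840 is shorter than the median lncRNA gene of 662.5 bp, and only 15.3% are shorter still, whereas Vinr and CR44619 are longer than 90.6% and 91.7% of them. Of the 2892 thresholded summits, 110 (3.80%, Wilson 95% interval 3.17% to 4.56%) lay inside a lncRNA gene, close to the 3.41% of the 27108 weaker pooled regions. Of the 100 strongest peaks, 4 (4%, interval 1.57% to 9.84%) lay inside one, namely at the 3 genes described here and at CR46035, a share near that of all peaks. All 4 summits were in a lncRNA exon, against 56 (1.94%, interval 1.49% to 2.51%) of all thresholded summits, and 3 of the 4 are at the chosen genes. Of the 25 strongest, 3 (12%, interval 4.17% to 29.96%) lay inside a lncRNA gene, and these are the peaks that chose the genes.

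The 5 lncRNA genes that followed by their strongest inside summit were CR46035, CR44357, CR45997, CR44320 and CR44149. CR46035 lies in an intron of osa, which encodes a subunit of the Brahma chromatin remodelling complex, and had a signal of 502 in the pooled list, 197 in replicate 2 and 302 in replicate 3. The remaining 4 had pooled signals from 292 to 308, and ranks from 141 to 158. At CR44357 and CR44149 a coding start was near (CBP at 302 bp and brwl at 138 bp), while CR46035, CR45997 and CR44320 lay 13943, 2792 and 2011 bp from one.

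**Figure D4:**
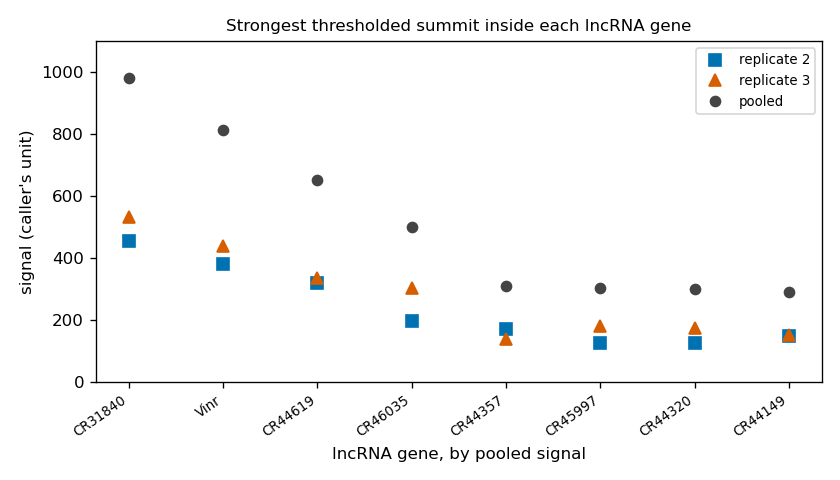
Signal of the strongest thresholded summit inside each of 8 lncRNA genes, in the pooled list and each replicate (caller's unit, linear axis from 0; the scale differs between lists). CR31840, Vinr and CR44619 lie at 983, 815 and 653, and the next gene, CR46035, at 502.

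The sequence windows were compared with the other 2889 thresholded peaks. The G+C content of these windows had a median of 35.6% in all peaks (quartiles 30.7% and 42.6%) and of 32.7% in the 100 strongest. The standings that follow are among all peaks. Vinr, at 23.8%, was richer in A and T than most, and 2.97% of peaks had a lower G+C content. CR44619, at 27.7%, was above 12.0% of peaks, and the weaker summit near its 3′ end, at 22.8%, above 1.83%. CR31840 had 42.6%, above 72.3% of the peaks. The 3 main peaks thus did not share a base composition.

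**Figure D5:**
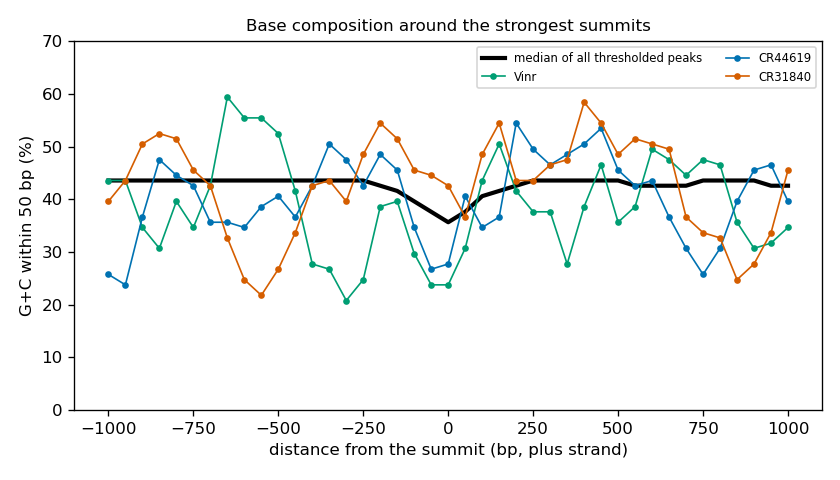
G+C content (%) of windows of 50 bp to either side of each plotted position around the main summits of the 3 genes, with the median of all 2892 thresholded peaks in black. The median is lowest, at 35.6%, at the summit, where Vinr, CR44619 and CR31840 stand at 23.8%, 27.7% and 42.6%; the single curves reach lower values elsewhere, such as 20.8% at -300 bp at Vinr and 23.8% at -950 bp at CR44619.

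Sequences that were frequent under the other peaks were then looked up at these summits, which took no part in the test. Of all sequences of 7 bases, each counted together with its reverse complement, 425 (5.19%) were present more often in the summit windows than in windows 300 bp away, and 480 (5.86%) less often (exact two-sided McNemar test, Benjamini-Hochberg adjusted exact p under the threshold of 0.05). The Vinr window held 23 of the 425, more than 86.9% of the other peaks, and CR44619 held 30, more than 98.0%. The median peak held 14 and its flanking window 6. The 425 were called on these same windows, so the higher count at summits follows from the selection. CR31840 held 6, and 10.2% of peaks held fewer. Overlapping sequences share bases, so these counts are not sums of independent matches. The windows with the high counts were also those with the low G+C content. Over all peaks the median G+C content was 35.6% at the summit and 43.6% at 300 bp to its right. The part of base composition in the counts, and in the p-values of single sequences, was not tested.

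Of the 10 sequences with the lowest p, 7 were more frequent at summits. The one with the lowest p, ACTATCG, was found in 3.81% of other summit windows and 0.727% of flanking windows (McNemar, adjusted exact p = 5.44e-13), and none of the 3 genes had it. The lowest p belonged to the sequence ATCGATA when windows of 100 bp to either side were used. It belonged to CTATCGA when replicate 3 was used alone. ATATTTG (6.51% against 3.08%, McNemar, adjusted exact p = 9.71e-07) was in the Vinr window, 34 to 40 bp right of the summit. TTTAAAA (10.3% against 5.95%, McNemar, adjusted exact p = 1.30e-06) was in the CR44619 window on the minus strand, 37 to 31 bp left of its summit. In all, 32.3% of the other peaks and 15.6% of their flanks held at least 1 of the 7, a contrast that also follows from how the 7 were picked.

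Known elements were few. CGATA, the core of the DNA replication-related element TATCGATA that the factor Dref binds, occurred at 2 places in the CR44619 window, both on the minus strand, 24 to 20 bp left and 5 to 9 bp right of the summit. It was present in 18.8% of the other summit windows and 12.7% of the flanks, and 6.44% of the summit windows held 2 or more copies. The Vinr and CR31840 windows had none. TATCGATA itself (2.70% of other summit windows, 0.727% of flanks), the GAGA factor sequence GAGAG (12.0% and 15.3%) and the E-box CACGTG (1.28% and 1.90%) were in none of the 3 windows on either strand. A match here is a match of letters and does not show which protein was bound.

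The 3 windows had little sequence in common. Vinr and CR44619 shared 6 sequences of 7 bases, all rich in A and T, of which AAAATAT was the most frequent at other peaks (11.7% against 7.79% of flanks). Vinr and CR31840 shared 5, all from the single stretch gaaaatcaaat or its reverse complement. CR44619 and CR31840 shared only GATGTGC, present at 1.04% of summits and 1.00% of flanks, and no sequence of 7 bases was shared by all 3.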

How the data were processed

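ChIP-seq was analysed for 2 libraries (biological replicates 2 and 3) of 1 group. Per the README listings the authors deposited, regions including background were derived, for each replicate and for their pool, from its alignments and a further file. The same further file underlies the control-normalized tracks, and the listings do not describe it. These lists were the input for the irreproducible discovery rate, which scores the repeatability of ranks between replicates and gave the thresholded list. The deposited signal value of a region is the caller's strength, on an unstated scale that differs between lists. The sources used here name no aligner, caller or filter. Summits were the region start plus the deposited offset. The dm3 lists and signal tracks were not used here.

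Positions are 1-based dm6, checked to lie within the chromosomes of the RefSeq release 6 genome. Genes came from Ensembl release 115, and lncRNA genes were those of biotype ncRNA with that prefix. RefSeq gave the 3 genes the same coordinates. A replicate partner was the nearest summit within 100 bp. The 7-base test was an exact McNemar test on the 50 bp to either side of each summit against an equal window 300 bp away, checked on simulated sequences. Python 3.11.15 and scipy 1.17.1 were used. Intervals cover counting only. The labels call the libraries biological replicates with separate samples of 1 line.

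The genes, lists and rules were chosen with earlier results of these data known. Named genes were the 3 genes, coding genes within 5 kb or flanking a main summit, the 5 lncRNA genes with the next strongest inside summits, the peaks next in rank, and those of 13 characterised lncRNA genes with a summit. The values that chose the 3 genes, peak signals and ranks, were not tested. Alternatives were distances of 2 and 10 kb, overlap, the stronger 50% of peaks, all ncRNA genes, windows of 100 bp to either side, region centres and each replicate alone.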

Additional observations from a re-analysis of the deposited data

How the results depend on the processing

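The count of 7 thresholded summits at the 3 genes was the same within 2 kb, within 10 kb and by region overlap, 4 in the stronger 50% of the peaks, and 6 in the strongest 2892 regions of either replicate alone. With a single replicate, ranks ran from 15 to 16 at Vinr and from 26 to 30 at CR44619, and stayed at 9 at CR31840. The share of lncRNA genes with a summit (22.3%) was 4.22% inside the gene, 13.2% within 2 kb, 32.6% within 10 kb, 12.7% with the stronger peaks and 21.1% to 22.0% with a single replicate; each narrower or wider rule counts other ground by construction. Of the 425 sequences of 7 bases, 367 were also called with windows of 100 bp to either side (747 in all), 159 with the stronger peaks (183 in all), and 235 and 279 with a single replicate (310 to 379 in all). Region centres of the replicates were 17, 19 and 2 bp apart at Vinr, CR44619 and CR31840, against 36, 9 and 0 bp for summits. No paired analysis was possible because there was a single group. Unknown depth limits all values.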

Other observations

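Of 13 lncRNA genes with described functions or loci, 7 (53.8%) had a thresholded summit inside or within 5 kb, against 22.3% of all lncRNA genes. These 13 run from 1077 to 158841 bp, longer than the median of 662.5 bp, so their windows are also wider. Hsromega, a heat-inducible gene whose nuclear RNA organises omega speckles, had 2 summits inside it, the stronger at rank 1170 (signal 113). bxd, of the bithorax complex, had 1 inside it at rank 2557 (signal 72.1). The summits near roX2, one of the RNAs of X chromosome dosage compensation (rank 2681, signal 69.8), cherub (rank 2204, signal 78.5), let7C, the host of the let-7 microRNA (rank 2140, signal 80.0), and CRG (rank 2298, signal 76.7) lay outside the genes. The strongest of the set, rank 323 with a signal of 214, lay outside acal, in an intron of lola and in an exon of asRNA:CR45135. The remaining 6 had no thresholded summit in or within 5 kb. CR31840, Vinr and CR44619 were chosen for strong peaks, so nothing is read from the lower signals at these genes.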
